A study of Homo sapiens with 2 samples.

Results

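The 1374 H4R3me2a peaks on chromosomes 4, 13 and 18 were selected on a measured outcome, the peak calls of the authors, and on nothing but their chromosome. They were taken from 33353 peaks in all, 747 on chromosome 4, 373 on chromosome 13 and 254 on chromosome 18. The other 19 autosomes held 31798 peaks. The values that chose the members, and every value below from the same peak calls, are therefore descriptions without a test.

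The study sequenced 1 library of chromatin precipitated with an antibody to H4R3me2a and 1 library of input DNA, both from HCT116, a human colorectal carcinoma cell line grown without drug. Cells were cross-linked with formaldehyde and the chromatin was sheared by sonication. Peaks were called on the precipitated library against the input. There are no replicates, a single line stands for the tumour type, and intervals below cover counting error only.

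H4R3me2a is histone H4 dimethylated asymmetrically on arginine 3, a mark placed mainly by the methyltransferase PRMT1 and linked to active transcription. Human chromosomes are mosaics of GC-rich stretches, where genes are short and dense, and AT-rich stretches with few and often long genes. Chromosomes 4, 13 and 18 are made mostly of AT-rich stretches, and in colorectal cancer chromosome 18 is known for the tumour suppressor SMAD4.

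The label of gene-poor and AT-rich chromosomes held in the GRCh38 sequence with the GENCODE 44 annotation. GC content was 38.2% on chromosome 4, 38.6% on chromosome 13 and 39.8% on chromosome 18, and 41.3% over the other 19 autosomes. Chromosomes 4 and 13 had the lowest GC content of the 22 autosomes, but chromosome 18 came sixth, after chromosomes 5, 6 and 3. Protein-coding genes numbered 3.66 per Mb on chromosomes 4, 13 and 18 and 7.44 per Mb on the other autosomes, and these 3 chromosomes had the fewest genes per Mb of the 22. Chromosomes 3, 5 and 6, the other autosomes of lowest GC content, are used as a nearer comparison.

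A set of 8 peaks shows the kinds of DNA on which the mark was called. All are the plus strand of GRCh38, read 5′ to 3′, lie outside UTRs and are printed in lower case with each CpG in capitals. The first 3 are, of peaks of up to 300 bp, those of highest fold at a promoter on each chromosome, in RAP1GDS1 (chr4:98261578-98261874), CENPJ (chr13:24922605-24922730) and RNF138 (chr18:32093255-32093458). The next 3 are those of highest fold more than 10 kb from every coding TSS (transcription start site), an intergenic peak near SH3RF1 (chr4:169334643-169334820), one in an intron of TPT1-AS1 (chr13:45377410-45377594) and one in an intron of CTIF (chr18:48632482-48632688). The seventh, in the first kilobases of DSG2 (chr18:31499502-31499661), had the lowest surrounding GC content of chromosome 18. The last, at PCDH9 (chr13:67230538-67230715), stood alone between long stretches without peaks.
RAP1GDS1 promoter: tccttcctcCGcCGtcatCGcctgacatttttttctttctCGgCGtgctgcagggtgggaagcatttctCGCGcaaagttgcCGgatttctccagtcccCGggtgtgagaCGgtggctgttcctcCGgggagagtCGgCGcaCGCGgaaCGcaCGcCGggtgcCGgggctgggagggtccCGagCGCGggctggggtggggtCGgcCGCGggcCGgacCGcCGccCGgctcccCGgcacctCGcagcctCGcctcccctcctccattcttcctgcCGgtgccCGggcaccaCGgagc
CENPJ promoter: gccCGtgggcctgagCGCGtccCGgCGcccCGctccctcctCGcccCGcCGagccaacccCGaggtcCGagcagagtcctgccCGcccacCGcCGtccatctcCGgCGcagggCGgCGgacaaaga
RNF138 promoter: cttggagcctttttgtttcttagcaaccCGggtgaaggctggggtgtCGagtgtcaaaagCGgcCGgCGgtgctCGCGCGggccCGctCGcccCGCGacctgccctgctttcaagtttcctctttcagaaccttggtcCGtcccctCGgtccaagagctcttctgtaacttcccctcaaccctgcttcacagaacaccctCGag
Near SH3RF1: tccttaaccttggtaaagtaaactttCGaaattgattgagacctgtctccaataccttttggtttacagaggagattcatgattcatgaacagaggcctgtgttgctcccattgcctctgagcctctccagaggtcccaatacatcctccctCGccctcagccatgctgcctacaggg
TPT1-AS1 intron: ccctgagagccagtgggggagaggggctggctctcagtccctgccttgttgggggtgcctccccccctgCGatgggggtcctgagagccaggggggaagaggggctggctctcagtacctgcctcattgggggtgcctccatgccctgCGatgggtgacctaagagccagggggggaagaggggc
CTIF intron: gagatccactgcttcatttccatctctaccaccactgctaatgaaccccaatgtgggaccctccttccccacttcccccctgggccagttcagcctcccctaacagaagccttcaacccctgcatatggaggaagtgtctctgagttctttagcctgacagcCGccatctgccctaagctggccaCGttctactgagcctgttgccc
DSG2 intron: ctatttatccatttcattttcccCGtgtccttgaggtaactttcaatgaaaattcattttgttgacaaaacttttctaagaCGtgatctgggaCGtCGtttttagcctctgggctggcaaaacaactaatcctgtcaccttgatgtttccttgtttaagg
PCDH9 promoter: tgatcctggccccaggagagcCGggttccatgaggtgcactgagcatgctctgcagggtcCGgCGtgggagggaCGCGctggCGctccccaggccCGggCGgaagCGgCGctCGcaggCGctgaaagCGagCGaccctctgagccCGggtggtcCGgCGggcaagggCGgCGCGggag

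The promoter peaks are rich in CpG and the distal ones are not. CpGs numbered 35 in the 297 bp at RAP1GDS1, 18 in the 126 bp at CENPJ, 15 in the 204 bp at RNF138 and 20 in the 178 bp at PCDH9. The 3 distal peaks held 2 each, although the TPT1-AS1 peak was 68.6% GC and the CTIF peak 56.0%. The DSG2 peak held 4 CpGs in 160 bp at 38.8% GC. In the TPT1-AS1 peak a stretch recurs, and the 301 bases around its summit matched themselves at 56.3% of positions when shifted by 79 bases. That measure allows no gaps, so copies of unequal length lower the match.

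Peaks were sparse on all 3 chromosomes. Peaks numbered 3.94 per Mb of sequence on chromosome 4, 3.81 on chromosome 13 and 3.17 on chromosome 18, together 3.74 per Mb, against 5.94 on chromosomes 3, 5 and 6 and 13.3 on the other 19 autosomes. The ratio of the 3 chromosomes together to the other 19 was 0.281 (95% interval 0.266 to 0.296), and these were the 3 lowest densities of the 22 autosomes. Peaks covered 0.0776% of the sequence of chromosomes 4, 13 and 18 and 0.300% of the other autosomes.

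The ratio was closer to 1 when GC content was held alike. Each position was given the peak rate of the other autosomes at its own GC content, measured over the 200 bp on either side in bins of 2%. Those rates gave 2448 peaks for chromosomes 4, 13 and 18, so that the 1374 observed were 0.561 of that number (0.532 to 0.592). The ratio was 0.611 (0.568 to 0.656) for chromosome 4, 0.588 (0.530 to 0.651) for chromosome 13 and 0.430 (0.379 to 0.486) for chromosome 18. It was 0.746 (0.721 to 0.772) for chromosomes 3, 5 and 6.

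Chromosome 18 was the lowest of the 22 autosomes in this order, followed by chromosome 21 at 0.516 (0.461 to 0.575) and then by chromosomes 13 and 4. The intervals of chromosomes 21, 13 and 4 overlap those of their neighbours, and chromosome 5 came next at 0.661 (0.620 to 0.704). Chromosome 17 was highest at 1.82. Copy number of the chromosomes in these cells was not tested.

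**Figure D1:**
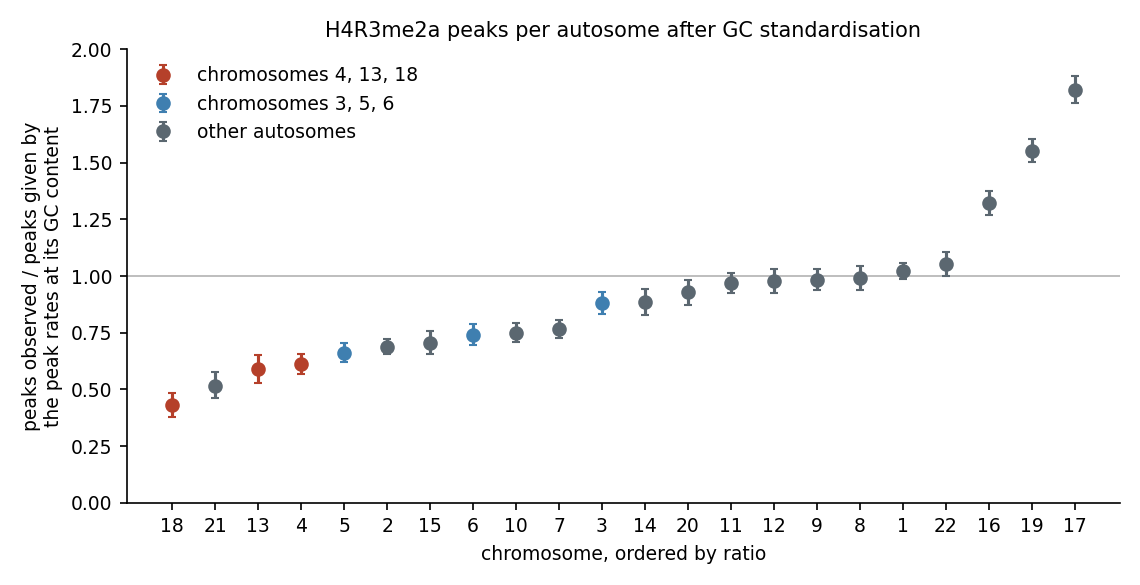
Ratio of the peaks observed on each autosome to the number given by the peak rates of other autosomes at the same GC content (vertical axis, points with 95% Poisson intervals), with chromosomes ordered from low to high. Chromosomes 18, 13 and 4 lie at 0.430, 0.588 and 0.611, below all others but chromosome 21.

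The lower density held at most levels of GC content. In sequence of 40 to 50% GC the 3 chromosomes had 1.75 peaks per Mb and the other autosomes 3.74. In sequence of 60 to 70% GC they had 142 (130 to 155) and the others 238 (234 to 242). Above 80% GC they had 127 (58.1 to 241) from 9 peaks, and the others 113 (91.7 to 138), a difference within counting error. Below 40% GC, which is 61.6% of the sequence of the 3 chromosomes and 48.4% of the others, peaks were nearly absent, with 5 and 54.

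When the GC content of the surrounding 1 Mb window was held alike as well, the ratio was 0.741 (0.703 to 0.782) for the 3 chromosomes and 0.989 (0.956 to 1.02) for chromosomes 3, 5 and 6. By chromosome it was 0.768 (0.714 to 0.825) for chromosome 4, 0.822 (0.741 to 0.910) for chromosome 13 and 0.595 (0.524 to 0.673) for chromosome 18. Chromosome 18 was again the lowest of the 3. Among peaks whose −log10 q reached 5 the ratio by GC content alone was 0.353, but only 33 of those 1279 autosomal peaks were on chromosomes 4, 13 and 18.

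Many windows of the 3 chromosomes held no peak. Of 368 windows of 1 Mb, 202 held a peak (54.9%, 49.6 to 60.1), against 361 of 550 on chromosomes 3, 5 and 6 (65.6%) and 1703 of 2397 on the other 19 autosomes (71.05%). On the 3 chromosomes 17 windows, 4.62% of them, held 50% of the peaks, against 6.30% of windows on the other 19 autosomes. By chromosome that share was 3.16% on chromosome 4, 6.12% on chromosome 13 and 11.25% on chromosome 18, where peaks were thus less concentrated. Windows of 10 or more peaks numbered 29 and held 60.3% of the peaks in windows, whereas on the other autosomes such windows held 88.3%.

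Peaks per window followed the GC content of the window on both sets of chromosomes. In windows below 36% GC the mean was 0.209 ± 0.548 peaks (SD, 91 windows) on chromosomes 4, 13 and 18 and 0.272 ± 0.550 on the other autosomes (232 windows). At 40 to 42% the means were 4.16 ± 2.97 (55 windows) and 3.91 ± 3.96 (407 windows). At 44 to 46% they were 9.0 ± 8.37 (9 windows) and 17.1 ± 11.99 (228 windows), and at 46 to 50% 37.6 ± 27.5 (7 windows) and 39.4 ± 22.6 (255 windows). At 50% or more they were 63.6 ± 33.9 from 5 windows and 111 ± 67.8 from 110 windows. In every class of GC content the means of both sets differed by less than the SD over windows of the other autosomes. That SD is the spread of single windows and not the error of a mean. At the rates of the other autosomes in windows of like GC content, 1675 peaks were expected on chromosomes 4, 13 and 18. The 1346 observed in windows were 0.804 of that number (0.761 to 0.848). The ratio was 0.852 (0.792 to 0.915) for chromosome 4, 0.906 (0.813 to 1.006) for chromosome 13 and 0.604 (0.531 to 0.684) for chromosome 18.

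**Figure D2:**
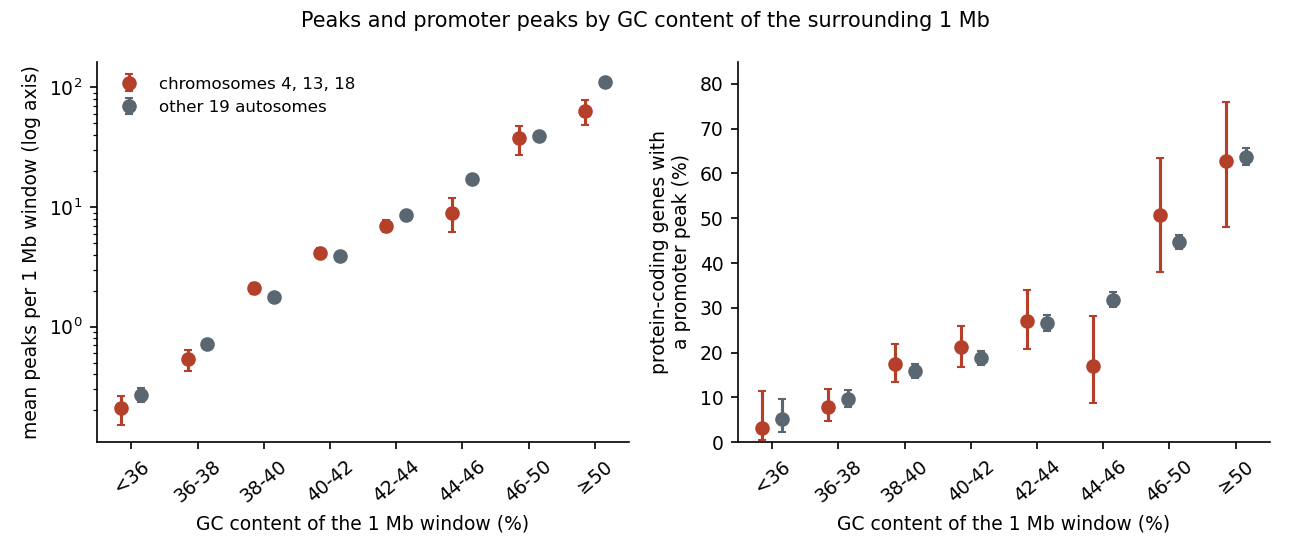
Left, mean number of peaks per 1 Mb window on a log axis, with the standard error over windows, and right, percent of protein-coding genes with a promoter peak, with exact 95% intervals, both by GC content of the window. Chromosomes 4, 13 and 18 stand left of the other 19 autosomes in each pair. In both panels the pairs lie apart at 44 to 46% GC, where the means are 9.0 and 17.1 peaks and the shares 16.9% and 31.8%. In the left panel the pairs that lie apart also include those at 36 to 38%, at 42 to 44% and at 50% or more. At 50% or more the means are 63.6 and 111. At 38 to 40% and 40 to 42% the mean of chromosomes 4, 13 and 18 is the higher.

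On chromosome 4 the peaks crowded at the tip of the short arm. The first 9 Mb held 428 of its 747 peaks (57.3%). The window at 1 to 2 Mb had 118 peaks, the most of any window of the 3 chromosomes, with 9 in FAM53A, 8 in FGFRL1, a decoy receptor for fibroblast growth factors, 8 in SPON2, a secreted matrix protein, and 7 in FGFR3. The next window had 93, of which 23 lay in ZFYVE28, a FYVE-domain protein of endosomes, 11 in SH3BP2, a signalling adaptor, and 9 in CFAP99. The first window had 49, of which 10 lay in PCGF3, a subunit of a Polycomb repressive complex.

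On chromosome 13 they crowded at the end of the long arm. Its last 3 windows span chr13:112000001-114364328, the last of them cut short of 1 Mb by the chromosome end. They held 130 of its 373 peaks (34.9%), 75 of them at 113 to 114 Mb and 33 at 112 to 113 Mb. MCF2L, a guanine nucleotide exchange factor, held 22 across both windows, RASA3, a GTPase-activating protein for Ras, 19, and ATP11A, a phospholipid flippase, 10. Another cluster of 25 peaks lay inside the arm at 98 to 99 Mb, over FARP1 and the kinase gene STK24 with 8 each.

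Chromosome 18 had no such end. Its fullest window, at 48 to 49 Mb, had 28 peaks, of which 19 lay in CTIF, a translation initiation factor of the cap-binding complex, 3 in ZBTB7C and 1 in SMAD7. The window at 79 to 80 Mb near the long arm end had 20, with 10 in NFATC1, a calcium-regulated transcription factor. The window at 23 to 24 Mb had 17, with 5 each in CABLES1 and TMEM241.

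Within 5 Mb of a chromosome end lay 324 peaks of chromosome 4 (43.4%), 155 of chromosome 13 (41.6%, long arm alone) and 55 of chromosome 18 (21.7%). Together that was 38.9% of the peaks (36.3 to 41.5) in 6.74% of the sequence, against 14.6% on chromosomes 3, 5 and 6 and 28.5% on the other 19 autosomes, in 7.10% of theirs. The higher share was not a higher density. These ends had 21.5 peaks per Mb, against 15.9 on chromosomes 3, 5 and 6 and 53.4 on the other 19 autosomes. Only 1 end of chromosome 4 was dense. Its short arm end had 305 peaks at 61.1 per Mb and 49.8% GC, and its long arm end 19 peaks at 3.84 per Mb and 40.7% GC. The chromosome 13 end had 32.0 peaks per Mb at 47.4% GC. On chromosome 18 the long arm end had 7.20 per Mb at 44.7% GC and the short arm end 3.80 per Mb at 39.4% GC.

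Away from the ends the 3 chromosomes were closer to each other. Density there was 2.35 peaks per Mb on chromosome 4, 2.34 on chromosome 13 and 2.84 on chromosome 18, against 5.37 on chromosomes 3, 5 and 6 and 10.2 on the other 19 autosomes. With the ends left out on all chromosomes, the ratio standardised by GC content was 0.511, 0.516 and 0.486 for chromosomes 4, 13 and 18. In the inner sequence chromosome 18 was thus close to the other two.

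**Figure D3:**
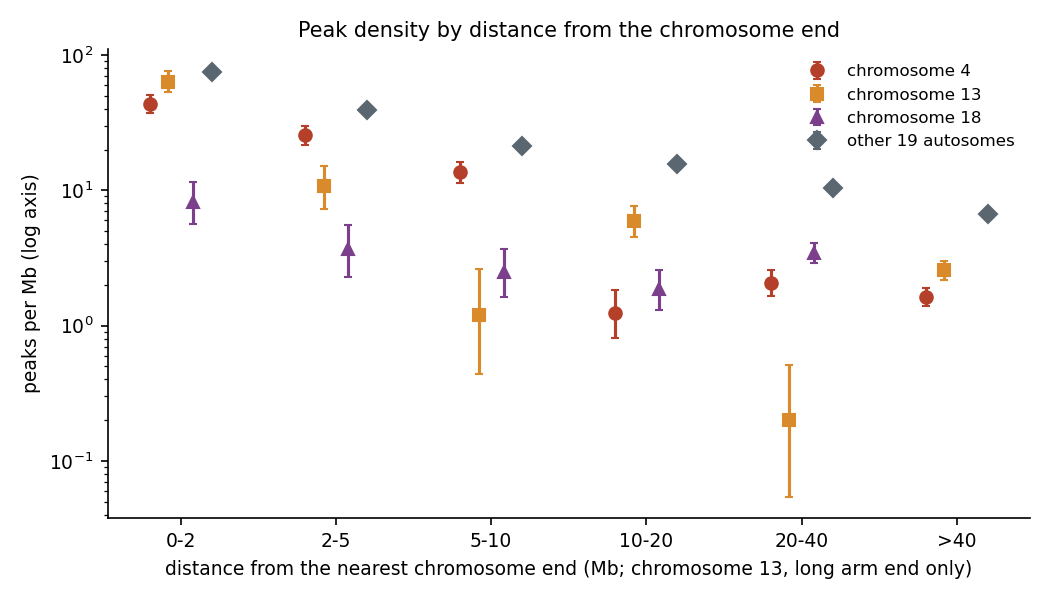
Peaks per Mb on a log axis by distance from the nearest chromosome end (points with exact 95% Poisson intervals) for chromosomes 4, 13 and 18 and for the other 19 autosomes. Density falls away from the end on chromosomes 4 and 13, with 43.4 and 63.6 peaks per Mb in the outer 2 Mb, while chromosome 18 starts at 8.25. The point for chromosome 18 beyond 40 Mb, 0 peaks in 0.253 Mb, is not drawn.

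Long stretches held no peak at all. Peak-free stretches over 1 Mb made up 65.7% of chromosomes 4, 13 and 18, 58.5% of chromosomes 3, 5 and 6, and 48.7% of the other 19 autosomes. Stretches over 5 Mb made up 23.98%, 11.01% and 10.4%. The share was highest on chromosome 13, at 38.5% in 3 such stretches.

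The longest stretch of chromosomes 4, 13 and 18 ran from MYCBP2 at chr13:77326283-94967638, 17.6 Mb with 18 protein-coding genes inside. Among them are EDNRB, the endothelin receptor, POU4F1, a neuronal transcription factor, and SLITRK1, SLITRK5 and SLITRK6, neuronal membrane proteins. A stretch of 14.3 Mb with 14 genes, among them PCDH17 and PCDH20, ended at the PCDH9 peak printed above, and 5.83 Mb without a peak followed as far as KLF5. On chromosome 4 the longest was 10.9 Mb with 10 genes, including ADGRL3 and EPHA5, between POLR2B and TMPRSS11A. On chromosome 18 it was 6.77 Mb around the centromere with 2 genes, POTEC and ANKRD30B, whose families have near-identical copies. Whether reads could be placed uniquely there was not tested. GC content was 35.3 to 35.8% in the 3 longest stretches of chromosomes 4 and 13 and 39.5% in that of chromosome 18.

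Introns were the largest class on chromosomes 4, 13 and 18. Introns held 614 summits (44.7%, 42.04 to 47.4), promoters 360 (26.2%, 23.9 to 28.6) and intergenic sequence 308 (22.4%, 20.2 to 24.7), with promoter meaning within 1 kb of any TSS of a protein-coding gene. On the other 19 autosomes the shares were 41.1% for introns, 30.4% for promoters and 16.8% for intergenic sequence. Intergenic peaks were therefore more common and promoter peaks less common here than elsewhere, by more than the counting error. Weighting the other autosomes to the GC content of these peaks left 31.6% for promoters and 16.7% for intergenic sequence.

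Exons held few. The 3 chromosomes had 35 summits in coding sequence (2.55%), 32 in 3' UTRs (2.33%) and 25 in exons of non-coding genes (1.82%), against 4.40%, 4.70% and 2.28% on the other 19 autosomes. None of the 1374 fell in a 5' UTR beyond the promoter windows, with an exact interval of up to 0.268%. Elsewhere 76 (0.239%) did so, a share inside that interval. Relative to the sequence in each class, promoters were 10.3 times as full as their share of the 3 chromosomes (9.42 to 11.3) and 6.45 times on the other autosomes (6.34 to 6.56). Promoters make up 2.54% of the sequence here and 4.72% there. The same ratio for coding sequence was 6.46 (4.52 to 8.94) and 6.85 (6.50 to 7.21). For 3' UTRs it was 2.24 (1.54 to 3.14) and 2.92 (2.78 to 3.07), so intervals overlapped in both classes. For introns it was 0.901 (0.848 to 0.955) and 0.756 (0.746 to 0.766).

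The order of the promoter shares depended on which TSSs were counted. With the 5' end of each gene as its only TSS, promoter peaks were 14.4% on chromosomes 4, 13 and 18 and 11.7% on the other 19 autosomes. With any TSS the share stayed lower on the 3 chromosomes, at 16.6% against 19.9% within 500 bp and 40.4% against 49.3% within 3 kb. Summits lay downstream of the TSS more often than upstream on both sets. Between 100 and 600 bp of the canonical TSS, 112 were downstream and 26 upstream on the 3 chromosomes, a ratio of 4.31 (2.79 to 6.88), against 5.24 (4.71 to 5.84) on the other autosomes.

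Peaks of the 3 chromosomes were also more often remote than those of the other 19 autosomes, with chromosomes 3, 5 and 6 in between. The median distance to a coding TSS was 5690 bp, against 3130 bp on the other autosomes and 4110 bp on chromosomes 3, 5 and 6. Over 100 kb from any lay 78 peaks (5.68%), against 2.70% and 4.69%. No annotated gene of any kind held 330 peaks (24.02%, 21.8 to 26.4), against 18.2% (17.7 to 18.6) and 18.9% (17.5 to 20.3). A neighbouring peak within 5 kb was found for 36.5% of peaks here, 40.6% on chromosomes 3, 5 and 6 and 59.5% on the other 19 autosomes. By chromosome it was found for 44.8% on chromosome 4, 30.0% on chromosome 13 and 21.7% on chromosome 18.

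**Figure D4:**
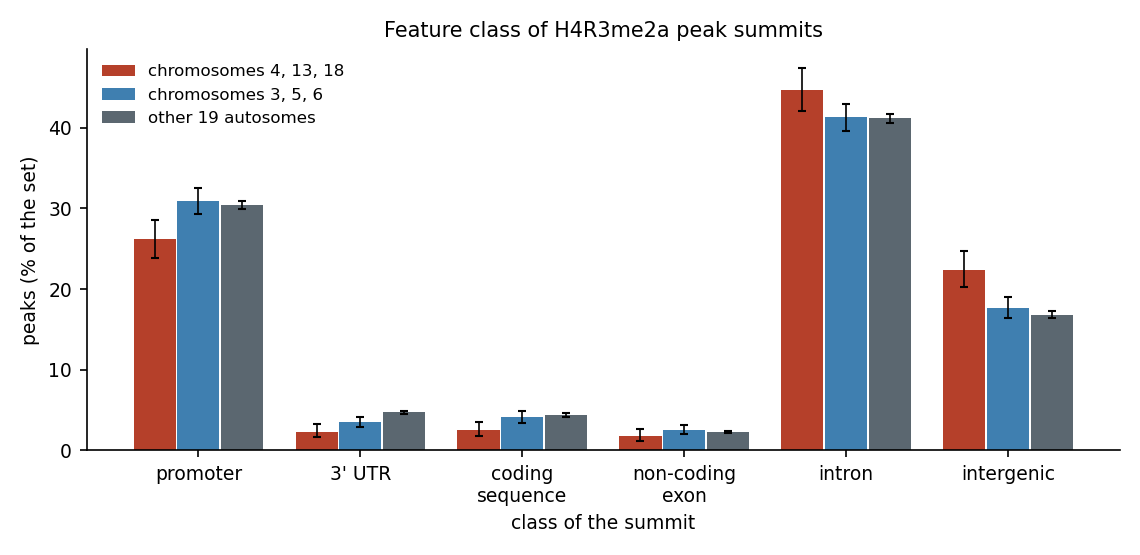
Percent of summits in each feature class, as bars with exact 95% intervals, for chromosomes 4, 13 and 18, chromosomes 3, 5 and 6, and the other 19 autosomes. Intergenic summits are 22.4% on chromosomes 4, 13 and 18 and 16.8% on the other 19 autosomes, and promoter summits 26.2% and 30.4%. The 5' UTR class, with 0 and 76 summits, is left out.

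Of the 1346 protein-coding genes of the 3 chromosomes, 282 had a promoter peak (21.0%, 18.8 to 23.2), against 793 of 3014 on chromosomes 3, 5 and 6 (26.3%, 24.7 to 27.9) and a background of 5973 of 17765 (33.6%) on the other 19 autosomes. The share was 20.3% on chromosome 4, 18.9% on chromosome 13 and 25.2% on chromosome 18, so chromosome 18 had the lowest peak density but the highest share of marked genes of the 3, with overlapping intervals. The share was also lower among genes of like promoter CpG content. At the rates of other autosomes with like promoter CpG content, 35.2% of these genes would have had a peak, a ratio of 0.596 (0.528 to 0.669).

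With the GC content of the 1 Mb window held alike in place of promoter CpG content, the ratio for genes was 1.007 (0.892 to 1.13). In windows of 38 to 40% GC, 17.4% of genes of the 3 chromosomes and 15.8% of those of the other autosomes had a promoter peak, and in windows of 50% or more 62.7% and 63.8%. At 44 to 46% GC the shares were 16.9% of 65 genes and 31.8%. Genes of the 3 chromosomes were marked about as often as genes elsewhere in windows of like GC content, other than at 44 to 46%. These genes also had fewer peaks each, since 77.0% of the marked ones had a single promoter peak, against 62.1% elsewhere.

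The peaks had about the same median fold as those elsewhere but rested on fewer fragments. The authors' fold, the ratio of the fragment pileup at the summit to the local background, had a median of 4.14 on chromosomes 4, 13 and 18 and 4.18 on the other 19 autosomes, and a maximum of 8.14 and 16.8. The pileup, the number of fragments over the summit, had a median of 9 and a maximum of 18, against 10 and 283. The background at the summit had a median of 1.06 fragments, against 1.54. At like background the median fold was lower on the 3 chromosomes in each of 5 ranges, with 4.12 against 4.63 below a background of 0.8 and 3.19 against 3.44 at 2.8 or more. At pileups this low a difference of 1 fragment moves the fold, so ranks among peaks of like fold are not firm.

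Peaks of 10 fragments or fewer were 74.4% of those on the 3 chromosomes, by chromosome 66.5%, 81.5% and 87.0% on 4, 13 and 18, against 58.7% on the other 19 autosomes and 74.5% on chromosomes 3, 5 and 6. Background was at its lowest possible level of 0.697 fragments in 232 peaks of the 3 chromosomes (16.9%, 14.9 to 18.97). That share was 7.77% on the other 19 autosomes and 14.6% (13.4 to 15.8) on chromosomes 3, 5 and 6, an overlapping interval. Folds of 6 or more numbered 43 (3.13%, 2.27 to 4.19), 27 on chromosome 4, 12 on chromosome 13 and 4 on chromosome 18, against a background of 3.54% on the other 19 autosomes, a share within counting error. The weakest −log10 q kept was 1.30 on both sets.

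Island-like sequence was more frequent among them. A summit in sequence of at least 55% GC with an observed to expected CpG ratio of 0.65 over 500 bp was found for 252 peaks (18.3%, 16.3 to 20.5), against 13.9% on chromosomes 3, 5 and 6 and 10.4% (10.0 to 10.7) on the other 19 autosomes. Mean GC content within 200 bp of the summit was 59.3% on both sets. Of the 135 peaks at 70% GC or more, 100 (74.1%) were within 1 kb of a coding TSS, and of the 204 below 50% GC, 26 (12.7%) were.

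The 5 promoter peaks of highest fold on chromosome 4 had between 11 and 14 fragments. PI4K2B, a lipid kinase, had 14 fragments over a background of 1.02, a fold of 7.41 (chr4:25234196-25234592). SCD5, a fatty acid desaturase, had 13 fragments and a fold of 7.34. RAP1GDS1, a chaperone of small GTPases, had 11 fragments and a fold of 7.07. WFS1, a membrane protein of the endoplasmic reticulum, followed at 6.82 and TBC1D14, a regulator of autophagy, at 6.72. All 5 summits lay 138 to 565 bp downstream of a TSS, in sequence of 68.6 to 78.3% GC.

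On chromosome 13 CENPJ, a centriole protein, led with 11 fragments over a background of 0.697 and a fold of 7.07. STARD13, a GTPase-activating protein, had 6.48, and LATS2, a kinase of the Hippo pathway, had 6.42. ATP11A followed at 5.93 and DNAJC3, a co-chaperone of the endoplasmic reticulum, at 5.89. The STARD13 and ATP11A peaks were at TSSs other than the canonical one of the gene.

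On chromosome 18 C18orf25 had 15 fragments and a fold of 7.90, the highest at any promoter of the 3 chromosomes (chr18:46174248-46174898). A peak of fold 7.42 lay within 1 kb of TSSs of both CEP76, a centriole protein, and PSMG2, a proteasome assembly chaperone, and counts for both. RNF138, a ubiquitin ligase, had 7.07, NEDD4L, another, 5.84, and ATP8B1, a phospholipid flippase, 5.77.

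Outside promoters, the highest fold of all 1374 peaks was in an intron of STK24, a kinase of the Ste20 family, with 14 fragments over a background of 0.842 and a fold of 8.14 (chr13:98483124-98483563). It lay upstream of the nearest coding TSS. Others more than 10 kb from a TSS were in TPT1-AS1 at 7.07, in an intergenic region near MIPEP at 6.48, in the CTIF intron at 6.87, near MTCL1 and in MYO5B at 5.84 each, near SH3RF1 at 6.19 and near FGFR3 at 6.12. MYO5B encodes a myosin motor of apical transport. Of all member peaks, 566 (41.2%) were more than 10 kb from a coding TSS, against 28.3% on the other autosomes and 35.5% on chromosomes 3, 5 and 6.

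Of the 3 widest peaks of each chromosome, 2 lay at promoters on chromosome 4, 1 on chromosome 13 and 3 on chromosome 18. An intergenic peak between TACC3 and FGFR3 was 1082 bp wide (chr4:1751698-1752779), followed by those at MAN2B2, a lysosomal mannosidase, with 906 bp and CCNG2, cyclin G2, with 735 bp. On chromosome 13 the widest were in GAS6-AS1 with 1031 bp, in GAS6, a ligand of receptor kinases, with 596 bp and at DOCK9, an exchange factor for Cdc42, with 521 bp. On chromosome 18 they were at C18orf25 with 651 bp, MIB1, a ubiquitin ligase of Notch ligands, with 631 bp and PPP4R1, a phosphatase subunit, with 584 bp. Median width was 176.5 bp on the 3 chromosomes and 186 bp elsewhere.

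A few genes held many peaks in their bodies. SORCS2, a sorting receptor, held 23 across 550 kb, none at a promoter. ZFYVE28 also held 23, within 149 kb, or 15.4 per 100 kb, and 3 were at promoters. SH3BP2 held 11 in its body of 48.0 kb, or 22.9 per 100 kb, and 1 more in a promoter window outside it. MCF2L had 10.7 per 100 kb, RASA3 12.3 and ATP11A 5.07 on chromosome 13, and CTIF 5.86 and NFATC1 7.49 on chromosome 18. The GC content of these 8 genes was 50.3 to 59.2%. Peaks of 1 gene are neighbours from 1 library and not independent.

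Groups of related genes differed in how many had a promoter peak, read against the 21.0% of all genes of the 3 chromosomes and the 33.6% of genes elsewhere. Of 30 genes for chromatin proteins, 12 had one (40%, 22.7 to 59.4). They were led by SETD7, a lysine methyltransferase, at a fold of 6.42, PCGF3 at 5.96, SMARCA5, the ATPase of ISWI remodelers, at 5.93, and CXXC1, a CpG-binding subunit of a methyltransferase complex, at 5.75. PRMT9, the arginine methyltransferase gene of chromosome 4, had no peak.

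Of 10 genes of TGF-beta and BMP signalling, 5 had a promoter peak (50%, 18.7 to 81.3). That interval includes the 21.0% of all genes of the 3 chromosomes and the 33.6% of genes elsewhere. It also includes the 35.5% of genes of other autosomes of like promoter CpG content. SMAD4, the shared mediator of the pathway and a tumour suppressor in colorectal cancer, had a pair of promoter peaks. Their folds were 5.30 from 8 fragments (chr18:51030835-51030993) and 3.46 from 6. The summits lay 697 and 984 bp downstream of the nearest canonical TSS, the first 2382 bp inside the outermost 5' end of the gene. TGIF1, a repressor of the pathway, had 4.72, SMAD9, a mediator of BMP signals, 4.09, and the inhibitor SMAD7 3.94. BMP2K, a kinase induced by BMP, had 3.55. SMAD2, a receptor-activated mediator, had no promoter peak and 1 peak of fold 4.12 from 6 fragments in its 3' UTR.

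Of 35 cancer genes, 6 had one (17.1%, 6.56 to 33.6). FGFR3, a receptor kinase, had 5.14 from 12 fragments, ING1, a chromatin reader, 4.89, KLF5, a transcription factor of gut epithelium, 4.06, and LMO7 3.95. RB1, the retinoblastoma cell-cycle brake, had no promoter peak but 2 in its body, of folds 4.42 from 10 fragments and 3.95 from 7. The annotated span of RB1 contains the gene RCBTB2, whose body held 1 of these 2 peaks. DCC, a netrin receptor, BRCA2, a repair protein, and CDX2, an intestinal transcription factor, had no peak in promoter or body. Over all genes of the 3 chromosomes 33.5% had a peak in promoter or body, against 49.9% elsewhere.

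Few genes of the next groups had a promoter peak. Neither expression in these cells nor window GC content was tested for them. Over all genes of the 3 chromosomes, 3.28% had a promoter peak in windows below 36% GC and 7.85% in windows of 36 to 38%. Of 33 neuronal receptors and adhesion proteins 1 had a promoter peak (3.03%, 0.0767 to 15.8), PCDH9, a protocadherin, with a fold of 4.72 from 8 fragments. Of 29 liver genes 1 did, CYP4V2, a fatty acid hydroxylase, at 4.89. None of 13 CXC chemokines on chromosome 4 did (interval up to 24.7%), and none of 10 clade B serpins on chromosome 18 (up to 30.8%). Both intervals include the 21.0% of all genes of the 3 chromosomes. Of 7 desmosomal cadherins DSC3 did, at 5.43, while DSG2 had only the intronic peak printed above.

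Shares in the remaining groups ranged more widely. Of 27 developmental transcription factors 4 had a promoter peak (14.8%), NKX3-2 at 5.93, ZIC2 at 4.91, GATA6, a factor of gut endoderm, at 3.94 and NKX6-1 at 3.28. Of 28 genes of cell division and replication 6 had one (21.4%), led by CENPJ, TACC3, a spindle protein, at 5.12, and RFC1, the large subunit of the clamp loader, and CENPE, a kinesin, at 4.06 each. Of 22 metabolic and mitochondrial genes 7 had one (31.8%), led by SCD5, ACSL1, an acyl-CoA synthetase, at 6.19, ATP5ME, an ATP synthase subunit, at 5.52 and LIPG, a lipase, at 5.24. Of 5 ribosomal protein genes RPS3A had one, at 5.89, and of 17 ZNF genes ZNF516, at 3.95.

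**Figure D5:**
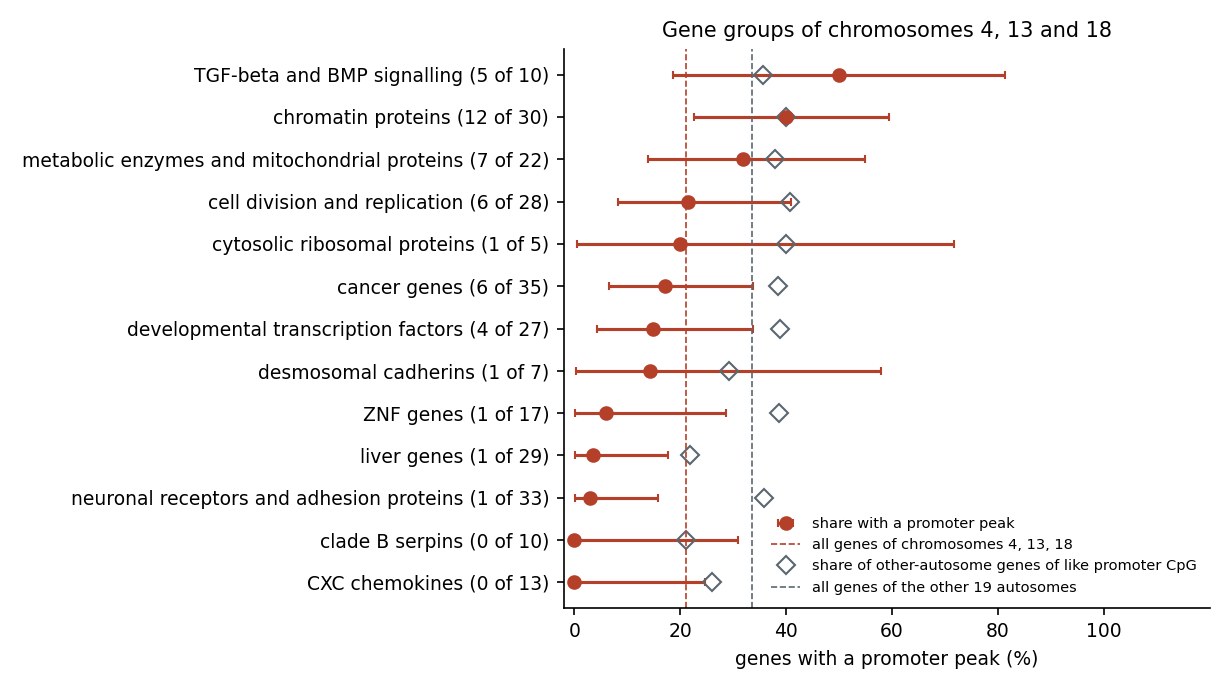
Percent of the genes of each group on chromosomes 4, 13 and 18 with a promoter peak (filled points, exact 95% intervals), with the share of genes of other autosomes of like promoter CpG content (open diamonds) and the shares over all genes of both sets (dashed lines, 21.0% and 33.6%). Chromatin proteins, at 40%, lie on their diamond, and neuronal genes lie at 3.03% against 35.8%.

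Tandem repeats of short period at the summit were rare, but more frequent than on the other 19 autosomes together. The 301 bases around the summit matched themselves at 80% or more of positions, at some shift of 10 to 100 bases, in 14 peaks of the 3 chromosomes (1.02%, 0.558 to 1.70), 17 of chromosomes 3, 5 and 6 (0.521%, 0.304 to 0.833) and 104 of the other 19 autosomes (0.327%, 0.267 to 0.396). The interval of the 3 chromosomes overlaps that of chromosomes 3, 5 and 6. Chromosome 4 had 10 and chromosome 13 had 4, and 11 of the 14 lay within 5 Mb of an end. Shares among peaks near ends alone were not compared. Peaks of the same gene, as in CTBP1 and PCGF3, were counted separately. Chromosome 18 had 0 of 254, with an interval of up to 1.44%. The clearest was in an intron of PCGF3, where a shift of 36 bases gave 95.1% identity and the fold was 3.19. Repeats whose copies differ in length can be missed, since the shift allows no gaps, and the TPT1-AS1 peak printed above is not counted. Whether reads of these repeats were placed correctly was not tested.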

How the data were processed

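The authors deposited peaks called on 1 H4R3me2a ChIP library against 1 input library, per the labels, with nothing pooled. The submitters' processing notes name Bowtie2, MACS2, deepTools and GRCh38, with versions, parameters and read numbers not given in sources used here. Per the file headers, the deposited pileup is a signal of fragments at the summit, the fold a ratio of pileup over local background, and significance the −log10 of p and q. Depth is thus known through the pileup alone.

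Background was recovered as (pileup + 1) / fold − 1. Chromosome names were matched to GRCh38 and 0 peaks ended beyond a chromosome. With GENCODE 44, each summit received the first class that held it, in this order: within 1 kb of any TSS of a protein-coding gene (promoter), UTR at the 5' or 3' side, coding sequence, non-coding exon, intron, otherwise intergenic. Peak rates were standardised on GC content over non-N sequence in steps of 50 bp, and gene shares over 10 bins of promoter CpG observed to expected ratio. Intervals are exact at 95% (Poisson or Clopper-Pearson) and cover counting error only. No test was made, since each group is 1 library. The standardised ratio was also computed on simulated peaks, for 3 simulated ratios, and no statement above rests on the outcome. Python 3.11.15, numpy 2.4.6, pandas 2.3.3 and SciPy 1.17.1 were used.

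Named genes were, for each chromosome, those of the 5 highest-fold promoter peaks, the 3 widest, the 3 highest-fold over 10 kb from a coding TSS, the 4 genes with most summits, the 3 fullest windows, up to 4 genes of each list by promoter fold, and SMAD4, SMAD2, SMAD7, DCC, RB1, BRCA2, CDX2, FGFR3 and PRMT9. A gene that this rule took is not reported here. Genes of peak-free stretches and of tandem repeats, and the standardisation by 1 Mb windows, were added after values were seen. The members and lists were chosen with earlier results of these data known.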

Additional observations from a re-analysis of the deposited data

How the results depend on the processing

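Values below are for chromosomes 4, 13 and 18. Of the alternatives run, 13 left a value within its interval and 41 moved it. With peaks of −log10 q of 5 or more, the density ratio was 0.172, the GC-standardised ratio 0.353, the promoter share 42.4%, the share of genes with a promoter peak 1.11%, of windows with a peak 6.25% and of peaks near ends 30.3% (34.2% on the other autosomes, so that order reversed), and the median fold was 6.42. With a fold of 4 or more, density was 0.298, genes 15.8% and ends 34.5%. With the 50% of peaks of higher q, density was 0.243, the GC-standardised ratio 0.494, promoters 29.9%, genes 11.4%, windows 38.6% and ends 41.7%. With peaks merged within 1 kb, the ratios were 0.307 and 0.607 and ends 35.8%. Without chromosomes 17 and 19 the ratios were 0.342 and 0.622, against chromosomes 3, 5 and 6 they were 0.629 and 0.732, and without chromosome ends 0.239 and 0.506. Chromosome 4 alone had a GC-standardised ratio of 0.611, and chromosome 18 alone ratios of 0.238 and 0.430. GC content over 500 bp on either side gave 0.603, and GC content with that of the 1 Mb window, chosen after seeing the data, 0.741. Promoter windows of 500 bp, 3 kb and gene 5' ends gave promoter shares of 16.6%, 40.4% and 14.4% and gene shares of 14.3%, 26.3% and 14.3%. Windows of 500 kb and 2 Mb gave 40.7% and 72.3% with a peak, and ends of 2 Mb and 10 Mb gave 23.9% and 50.9%. The median fold of promoter peaks was 4.34. No paired analysis was possible because the study has 1 ChIP library and 1 input library. With no replicate and a median pileup of 9 fragments, absence of a peak here is absence at this depth, and mappability, copy number and antibody specificity were not tested.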
